A study of Mus musculus with 6 samples.

Results

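The cysteine-rich secretory proteins (CRISPs), their relatives, and Adam7 and Adam28, ADAM genes reported from the epididymis, were described in whole-epididymis RNA of WT and Ocln-KO mice. The genes were the rows of the count table for Crisp1, Crisp2, Crisp3, Crisp4, Crispld1, Crispld2, Adam7 and Adam28. All 8 were among the 57127 genes listed, all 8 had at least 1 count, and 7 of them were among the 19691 genes abundant enough to be tested. Adam28 did not pass that filter. The mice were adult, of the C57BL/6 strain by their labels, and either wild type (WT) or lacking occludin, a protein of the tight junctions that seal epithelia (Ocln-KO, Ocln-/-). The Ocln-KO males came from heterozygous pairings. There were 3 libraries of each genotype. The study's methods speak both of separate extraction from pairs of WT and Ocln-KO mice and of pooled RNA, so n counts libraries, and p-values measure the spread among these libraries.

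CRISPs are secreted proteins of the CAP superfamily, with a conserved CAP domain and a cysteine-rich domain that in several members acts on ion channels. In the male tract CRISP1 and CRISP4 are made by the epididymal epithelium and bind to passing sperm, CRISP2 is made by spermatids and sits in the acrosome and tail, and CRISP3 in the mouse is best known from salivary gland. The CRISPLD proteins are secreted relatives with LCCL domains. ADAMs are membrane proteins with a disintegrin and a metalloprotease domain. Adam7 is transcribed in the epididymal epithelium, and its protein, which lacks an active protease site, is transferred to the sperm surface. Adam28 lies on the same chromosome and has been described in epididymis and in lymphocytes.

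The smallest library held 30646424 counts and the largest 38870780, and the median was 38073990 for WT and 31570990 for Ocln-KO. Levels are given as CPM, counts scaled to a common library size, where 1 count equals between 0.0267 and 0.0314 CPM. Ocln itself had 85.9, 78.8 and 91.8 CPM in the WT libraries and 15.1, 15.3 and 14.9 CPM in the Ocln-KO libraries. Each Ocln-KO library lay below each WT library, at a log2 fold change of -2.50 (SE 0.094, edgeR adjusted p = 1.08e-04). Here and below, SE is the standard error, and the adjusted p comes from the quasi-likelihood test of edgeR after Benjamini-Hochberg adjustment over all tested genes. The sample records give whole epididymis as the tissue, while an extraction protocol in them names prefrontal cortex. Crisp1 alone took 1.61%, 1.22% and 1.504% of all counts in the WT libraries, and the epididymal gene Rnase9 had 2676 ± 545 CPM in WT (SD, n = 3). Other genes of the initial segment, the first part of the duct, and of the caput ranged widely. Ros1, a receptor kinase of the initial segment, had 288, 325 and 208 CPM in the WT libraries and 276, 360 and 420 CPM in the Ocln-KO libraries. Lcn8 had between 29 and 86 counts in a library. Cst8 had at most 25 counts, Rnase10 at most 20, Cst11 at most 5 and Lcn9 at most 4, and Cst12 had no count in any library.

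The Ocln-KO libraries differed among themselves in regional and sperm transcripts. Gpx5, a secreted glutathione peroxidase of the caput, had 54.5, 172 and 26.3 CPM in the WT libraries and 256, 7264 and 10039 CPM in the Ocln-KO libraries. Spag11b, a defensin-like gene of the caput, had 0.294, 0.527 and 0.135 CPM in the WT libraries and 1.09, 144 and 215 CPM in the Ocln-KO libraries. Ocln-KO replicates 2 and 3 were thus far above the rest for both genes, and Ocln-KO replicate 1 lay above each WT library but far below the other Ocln-KO libraries. The 14 spermatid and sperm genes summed to 605, 469 and 493 CPM in WT and to 589, 617 and 139 CPM in Ocln-KO. Ocln-KO replicate 3 was low in them and the other 5 libraries were not. Values of each library are therefore given for most genes.

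Per kilobase of exon, which allows genes to be ranked, the mean level in WT was 10516 CPM per kb for Crisp1, 1722 for Adam7, 69.0 for Crisp4, 23.8 for Crispld2, 16.1 for Crisp2, 6.15 for Crispld1, 0.306 for Crisp3 and 0.00911 for Adam28. In WT no gene overlapped its neighbour in this order in any library. In Ocln-KO the order of the means was the same, from 5545 CPM per kb for Crisp1 to 0.00657 for Adam28. There Crisp2, at 15.02 ± 9.35 CPM per kb, overlapped Crispld1, at 9.73 ± 3.63 (SD, n = 3 libraries each). The 8 genes together took 2.41%, 2.08% and 2.12% of all counts in WT and 1.60%, 1.90% and 1.16% in Ocln-KO, so each Ocln-KO library was below each WT library. Crisp1 alone took 1.61%, 1.22% and 1.504% in WT and 1.04%, 0.924% and 0.458% in Ocln-KO, without overlap. Adam7 took 0.756%, 0.829% and 0.586% in WT and 0.531%, 0.939% and 0.660% in Ocln-KO, with overlap. The lower sum is therefore not a difference shared by the group. Of all tested genes 19.4% were lower without overlap.

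**Figure D1:**
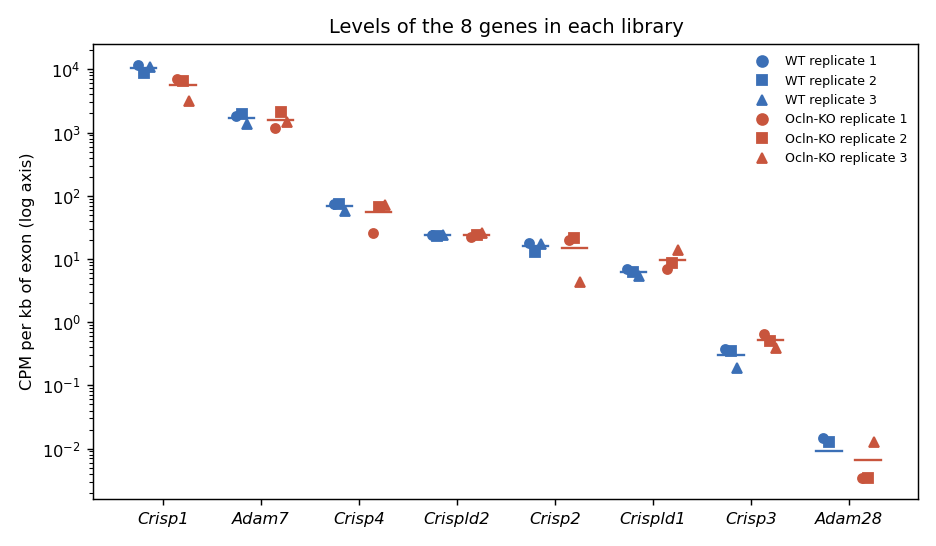
Level of the 8 genes in each library, in CPM per kb of exon on a log axis, with WT in blue, Ocln-KO in red, a symbol for each replicate and a line at the mean of each genotype. The levels fall from 10516 CPM per kb for Crisp1 in WT to 0.00911 for Adam28, whose WT replicate 3 had 0 counts and is not drawn.

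Between the genotypes, edgeR called 0 of the 7 tested genes lower and 0 higher in Ocln-KO at a false discovery rate (FDR) under 0.05. Over all genes tested, 5.04% were called lower and 3.91% higher. These 992 and 770 calls depended on single libraries: they numbered 19 and 4 without WT replicate 1, 145 and 85 without WT replicate 2, 40 and 16 without WT replicate 3, and 342 and 220 without Ocln-KO replicate 2. Without Ocln-KO replicate 1 or 3 they numbered 875 and 782 or 944 and 748. At an unadjusted p under 0.05, 1 gene was lower (Crisp1) and 1 was higher (Crispld1), and DESeq2 called 1 lower and 1 higher at the same FDR, again Crisp1 and Crispld1. Over all genes tested, 15.2% were lower and 13.9% higher at that unadjusted p, and DESeq2 called 8.67% lower and 8.15% higher. limma-voom called 0 of the 7 in either direction, and 5.33% lower and 3.7% higher over all genes. WT and Ocln-KO values had no overlap for 1 gene that was lower, Crisp1, and for 2 that were higher, Crisp3 and Crispld1. Over all tested genes the shares without overlap were 19.4% lower and 16.9% higher. The median log2 fold change was -0.10 over the 7 genes and 0.0081 over all tested genes. For the counts of positive log2 fold changes below, 10018 of all 19691 tested genes had a positive one.

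**Figure D2:**
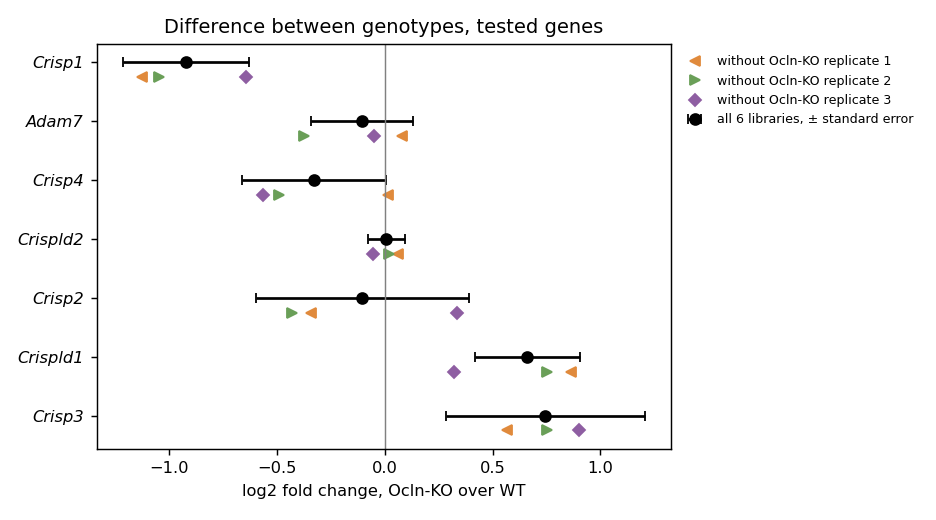
Log2 fold change of the 7 tested genes, Ocln-KO over WT, with all 6 libraries (black, bars are standard errors) and with each Ocln-KO library left out in turn (coloured). Crisp1 stays below 0 and Crispld1 and Crisp3 above 0 in each of these fits, while Crisp2, Crisp4, Crispld2 and Adam7 have fits on either side of 0.

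Crisp1 encodes the main secreted CRISP of the epididymis, a protein that associates with sperm during their transit. Its level was 16769, 12488 and 15417 CPM in the WT libraries and 9957, 9160 and 4439 CPM in the Ocln-KO libraries. All Ocln-KO libraries lay below all WT libraries, and Ocln-KO replicate 3 was the lowest. The ratio of Ocln-KO to WT was 0.527, a log2 fold change of -0.92 (SE 0.29), with an unadjusted p of 0.0136 and an edgeR adjusted p of 0.0855. This misses the FDR threshold. Without Ocln-KO replicate 3 the difference was smaller, at -0.64, and the libraries that remained lay closer together, with an adjusted p of 0.0431. DESeq2 gave -0.92 with an adjusted p of 0.00494. Over all alternatives the log2 fold change ran from -1.12 to -0.58 and the adjusted p from 0.00494 to 0.229. In a whole organ, fewer cells that make a transcript and less transcript per cell cannot be told apart.

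A transcript of the distal duct was low in the same libraries as Crisp1. Cd52, a surface antigen of the distal epididymis and the most abundant gene of the distal list, had 2607, 2333 and 2711 CPM in the WT libraries and 1270, 1630 and 348 CPM in the Ocln-KO libraries, lower in each Ocln-KO library and lowest in Ocln-KO replicate 3. Its log2 fold change was -1.24 (SE 0.46, edgeR adjusted p = 0.127), and -0.81 without Ocln-KO replicate 3 (adjusted p = 0.0159). DESeq2 gave an adjusted p of 0.0813 and limma-voom 0.0994. Of the 6 genes of that list 2 were tested, 1 was called higher and 0 lower (3.91% and 5.04% of all tested genes). Hoxa11, Hoxa13 and Hoxd13 had no count in any library. The gene called higher was Akr1b7, an aldo-keto reductase of the vas deferens, at 33.5, 32.0 and 54.7 CPM in the WT libraries and 115, 111 and 156 CPM in the Ocln-KO libraries. Its call was lost without WT replicate 1 (adjusted p = 0.0811) and without WT replicate 2 (0.0504). Summed over the list, the level was 2640, 2365 and 2766 CPM in the WT libraries and 1385, 1741 and 505 CPM in the Ocln-KO libraries. Cd52 made up most of that sum in each library, so the sum is not a separate value for the distal duct. Whether the makeup of the duct in each library had a part in the level of Crisp1 was not tested. The 3 genes whose pattern over the 6 libraries was most like that of Crisp1, among 10271 genes with a mean of at least 10 CPM, were 1700019D03Rik, Spink13 and Nudt5, with root mean square differences of 0.050, 0.094 and 0.097 in centred log2 CPM.

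Crisp3 is the near copy of Crisp1 and lies beside it on chromosome 17, Crisp3 from 40221777 to 40242288 and Crisp1 from 40293758 to 40319207 (RefSeq, GRCm38.p6, both on the minus strand). The 250 bases before the start sites are shown because the sequences are nearly the same while the transcript levels are far apart. They lie at chr17:40319208-40319457 for Crisp1 and at chr17:40242289-40242538 for Crisp3, from RefSeq on GRCm38.p6, minus strand, written 5′ to 3′ with the 11 positions at which they differ in capitals:
Crisp1: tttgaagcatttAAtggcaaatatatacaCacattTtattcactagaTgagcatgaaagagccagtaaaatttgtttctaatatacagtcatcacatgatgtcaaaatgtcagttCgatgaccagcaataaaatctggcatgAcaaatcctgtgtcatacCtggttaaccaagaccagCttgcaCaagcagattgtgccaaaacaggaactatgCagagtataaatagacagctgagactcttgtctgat
Crisp3: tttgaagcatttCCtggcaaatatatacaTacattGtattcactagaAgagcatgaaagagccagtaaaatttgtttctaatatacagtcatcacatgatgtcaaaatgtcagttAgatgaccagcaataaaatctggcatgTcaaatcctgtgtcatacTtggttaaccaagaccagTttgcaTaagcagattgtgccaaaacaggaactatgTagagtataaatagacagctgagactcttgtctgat
The sequences were identical at 239 of 250 positions, 95.6%, whereas the Crisp1 stretch matched those of Crisp4 and Crisp2 at 24.4% and 28.0% of positions without gaps. The motif TATAAA, searched on both strands, occurred 1 time in each of the Crisp1 and Crisp3 stretches, with its first base 31 bases before the start. It had 2 matches in the Crisp2 stretch and 0 in those of Crisp4 and Crispld2, and was present in 12.4% of the 32851 promoters of the same length. The motif AGAACA, a half-site that steroid receptors can bind, had 1 match in the stretch of Crisp4. It had 0 in those of Crisp1, Crisp2, Crisp3 and Crispld2, and was present in 16.1% of promoters. Promoter sequences were found for 5 of the 8 genes, not for Crispld1, Adam7 or Adam28.

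Crisp3 was close to the lower limit of measurement. It had 20, 17 and 10 counts in WT and 29, 23 and 19 counts in Ocln-KO, equal to 0.535, 0.498 and 0.269 CPM and to 0.904, 0.722 and 0.562 CPM. The lowest Ocln-KO library was just above the highest WT library. The log2 fold change was 0.74 (SE 0.46, edgeR adjusted p = 0.326), so the difference did not pass the test. For each Crisp3 count there were 31366, 25068 and 57251 Crisp1 counts in WT and 11014, 12689 and 7895 in Ocln-KO. The Crisp1 and Crisp3 transcripts were identical at 88.6% of aligned positions. Of the 1267 windows of 150 bases in the Crisp1 transcript 0 occurred unchanged in that of Crisp3, and 33 of the 1367 windows of 50 bases did (2.4%). Reads from the more abundant gene could be assigned to the other where the sequences agree, and the treatment of such reads is not given in the sources used here, so the Crisp3 counts are uncertain.

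Crisp4 encodes the other CRISP of the epididymal epithelium and lies on chromosome 1 from 18114889 to 18145902. It had 203, 206 and 158 CPM in the WT libraries and 71.7, 183 and 197 CPM in the Ocln-KO libraries. Ocln-KO replicate 1 was the low library and the other Ocln-KO libraries lay within the WT range, so the genotypes overlapped. Its log2 fold change was -0.33 (SE 0.33, edgeR adjusted p = 0.562). Without Ocln-KO replicate 1 it was 0.015 (adjusted p = 0.957). With Ocln-KO replicate 1 as the only Ocln-KO library, an alternative added after the data were seen, it was -1.40 (adjusted p = 0.00423), a value that assumes that a lone library varies like the WT libraries. Of the alternatives run, that fit alone was past the threshold.

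Some other epididymal genes were low in Ocln-KO replicate 1 and others were not. Lcn5, a lipocalin that binds retinoic acid, had 5279, 5580 and 3926 CPM in the WT libraries and 2479, 6218 and 6476 CPM in the Ocln-KO libraries, and Rnase9 had 3017, 2963 and 2047 CPM in the WT libraries and 1511, 3367 and 2983 CPM in the Ocln-KO libraries. For both genes the same library was the lowest of the 6, and the other Ocln-KO libraries were not below the WT range. Wfdc8, a protease inhibitor gene, was also lowest in that library, at 340 CPM against 509 to 617 CPM in WT. Spink8, another protease inhibitor gene, was highest of the 6 there, at 5425 CPM. Clu, which encodes the secreted chaperone clusterin, had 5038 CPM there, within its WT range of 4305 to 6146 CPM. In Ocln-KO replicates 2 and 3 Clu was above that range, at 8787 and 13137 CPM (edgeR adjusted p = 0.151 between the genotypes). Lcn5, Wfdc8, Spink8 and Clu were chosen after their values were seen. The genes most like Crisp4 over the 6 libraries were Slc41a3, Nxf3 and Bex4, with differences of 0.10, 0.12 and 0.13.

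On chromosome 1, next to Crisp4, lies a cluster of beta-defensin genes, small secreted antimicrobial proteins. Defb41, 136 kb away, had 14.8, 13.5 and 3.90 CPM in the WT libraries and 8.63, 114 and 156 CPM in the Ocln-KO libraries. Like Gpx5 it was high in Ocln-KO replicates 2 and 3, and Ocln-KO replicate 1 lay within the WT range. Defb18 was high in the same pair of libraries, at 2.51, 0.908 and 0.592 CPM in the WT libraries and 1.18, 9.89 and 11.5 CPM in the Ocln-KO libraries. Defb44-ps, the member of the cluster closest to Crisp4, was not: it had 10.6, 11.8 and 6.84 CPM in the WT libraries and 6.80, 8.44 and 2.37 CPM in the Ocln-KO libraries. Of the neighbours within 250 kb the pseudogene Gm17837, whose span lies inside that of Defb41, passed the test, with a log2 fold change of 3.36 (SE 0.75, edgeR adjusted p = 0.0374). It had 2.06, 1.96 and 1.05 CPM in the WT libraries and 2.87, 19.6 and 29.6 CPM in the Ocln-KO libraries, and with Ocln-KO replicate 1 as the only Ocln-KO library its log2 fold change was 0.76 (adjusted p = 0.357). Its call was lost without WT replicate 1 (adjusted p = 0.130), WT replicate 2 (0.101), WT replicate 3 (0.144) or Ocln-KO replicate 2 (0.0834), and with limma-voom (0.172). Crisp4 itself did not share that pattern: in Ocln-KO replicates 2 and 3 it stayed within its WT range.

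**Figure D3:**
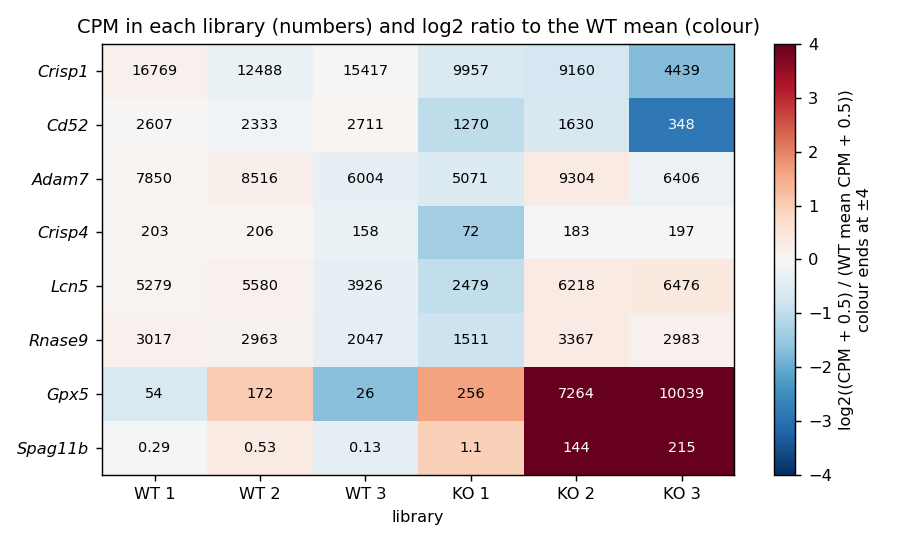
CPM of Crisp1, Adam7, Crisp4 and of regional genes of the epididymis in each library, written in the cells, with colour for the log2 ratio to the WT mean (0.5 added to each value, colour ending at 4 either way). Crisp1 and Cd52 are lowest in Ocln-KO replicate 3, Crisp4, Lcn5 and Rnase9 in Ocln-KO replicate 1, and Gpx5 and Spag11b are high in Ocln-KO replicates 2 and 3.

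Adam7 took more counts than any other ADAM gene listed here and lies on chromosome 14 from 68497336 to 68533689. Its level was 7850, 8516 and 6004 CPM in the WT libraries and 5071, 9304 and 6406 CPM in the Ocln-KO libraries. The lowest and the highest of the 6 values were both from Ocln-KO, from replicates 1 and 2, so the genotypes overlapped. Its log2 fold change was -0.11 (SE 0.24, edgeR adjusted p = 0.808), and it was 0.082 without Ocln-KO replicate 1. Crisp1 and Adam7, the most abundant genes of the 8, thus differed in their pattern: there were 2.14, 1.47 and 2.57 Crisp1 counts per Adam7 count in WT and 1.96, 0.985 and 0.693 in Ocln-KO. The ratio in Ocln-KO replicate 1 lay within the WT range and the other Ocln-KO libraries lay below it. The genes most like Adam7 in pattern were Rpl30, Rpl36al and Pebp1, with differences of 0.077, 0.095 and 0.10.

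On sperm ADAM7 is known to associate with the chaperones calnexin (Canx) and HSPA5 and with the membrane protein ITM2B. All 3 partner genes were tested, all had a negative log2 fold change and 0 were called by edgeR in either direction, with a median of -0.31. At an unadjusted p under 0.05 all 3 were lower, DESeq2 called 2 lower and limma-voom 0. Over all tested genes these shares were 15.2%, 8.67% and 5.33% lower. Itm2b, the most abundant, had 7607, 7325 and 6833 CPM in the WT libraries and 5151, 6365 and 5663 CPM in the Ocln-KO libraries. Its libraries did not overlap, and its log2 fold change was -0.34 (SE 0.13, edgeR adjusted p = 0.127).

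Adam28 lies on the same stretch of chromosome 14, from 68604998 to 68655889, and was near 0 in all libraries. Some listed caput genes were as low, so its label as an epididymal gene cannot be judged from these counts. It had 5, 4 and 0 counts in WT and 1, 1 and 4 counts in Ocln-KO, against 162679 to 296429 counts of Adam7 in the same libraries. Most libraries were at or near the limit of 3 counts, which is between 0.0802 and 0.0942 CPM, so no fold change is given. Low counts were not particular to Adam28. Gapdh, a gene used by most cells, had between 258 and 434 counts in a library, and the caput gene Cst11 at most 5. Whether reads of such genes were lost in alignment or counting was not tested. The transcripts of Adam7 and Adam28 shared 0 windows of 25 bases, so Adam7 reads of that length matched none of the Adam28 transcript exactly. Adam28 is also known from lymphocytes, and the 7 B lymphocyte genes were low too: they summed to 1.60, 1.61 and 1.45 CPM in WT and to 1.90, 2.35 and 5.27 CPM in Ocln-KO, with 0 of the 4 tested called by edgeR, DESeq2 or limma-voom and 0 at an unadjusted p under 0.05. Cd22 was the most abundant of them by the mean of both genotypes, at 0.339 ± 0.229 CPM in WT against 0.848 ± 0.631 CPM in Ocln-KO (SD, n = 3).

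Adamdec1, which encodes a secreted ADAM-like protease of macrophages and dendritic cells, lies between Adam7 and Adam28, from 68563387 to 68582072. It was higher in Ocln-KO, at 0.241, 0.117 and 0.135 CPM in the WT libraries and 0.686, 0.722 and 1.04 CPM in the Ocln-KO libraries. These are 9, 4 and 5 counts against 22, 23 and 35, a small number but without overlap. The log2 fold change was 2.28 (SE 0.51, edgeR adjusted p = 0.0367), and the adjusted p lay between 0.0558 and 0.132 with any library left out. It was 0.110 when libraries of the same replicate number were treated as pairs. Of the 8 macrophage genes 8 were tested and 7 had a positive log2 fold change, with 0 called by edgeR in either direction and a median of 0.55. At an unadjusted p under 0.05, 5 were higher and 1 lower (13.9% and 15.2% of all tested genes), DESeq2 called 3 higher (8.15% of all) and limma-voom 0. Without Ocln-KO replicate 1, 6 of the 8 were called higher by edgeR, where 782 of all 20352 tested genes were. Without any other single library 0 were called. Together they summed to 183, 174 and 159 CPM in WT and to 183, 228 and 282 CPM in Ocln-KO. Mrc1, the most abundant, had 47.7 ± 6.56 CPM in WT against 57.2 ± 2.97 CPM in Ocln-KO (SD, n = 3). The part of macrophages in the level of Adamdec1 was not tested.

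Crisp2 is the CRISP of the germ line. It lies on chromosome 17 from 40764734 to 40794146 and had 50.9, 36.1 and 49.4 CPM in the WT libraries and 55.4, 59.6 and 12.0 CPM in the Ocln-KO libraries. Ocln-KO replicate 3 was far below the other 5 libraries, and Ocln-KO replicates 1 and 2 were above all WT libraries. The log2 fold change was -0.10 (SE 0.49, edgeR adjusted p = 0.914), and 0.34 without Ocln-KO replicate 3 (adjusted p = 0.201). Crisp2 followed the sperm transcripts: as a share of the counts of the 14 spermatid and sperm genes it was 8.42%, 7.69% and 10.03% in WT and 9.41%, 9.66% and 8.65% in Ocln-KO, with Ocln-KO replicate 3 within the range of the others. All 14 were tested, 9 had a positive log2 fold change and 0 were called by edgeR in either direction. At an unadjusted p under 0.05, 1 was lower (15.2% of all tested genes), DESeq2 called 1 lower (8.67% of all) and limma-voom 0. Without Ocln-KO replicate 3 edgeR called 1 lower and 1 higher, where 944 and 748 of all 20370 tested genes were. The number with a positive log2 fold change was 3 with limma-voom, and leaving out Ocln-KO replicate 1, 2 or 3 gave 4, 3 and 11, and leaving out WT replicate 2 gave 4. The most abundant by the mean of both genotypes was Odf1, a protein of the outer dense fibres of the tail, with 154, 127 and 135 CPM in the WT libraries and 139, 135 and 33.8 CPM in the Ocln-KO libraries. The genes most like Crisp2 were Atp8b3, 4930571K23Rik and Dbil5, with differences of 0.12, 0.16 and 0.16.

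Some ADAMs of the testis were low in the same library and others were not. Adam2, Adam3, Adam5 and Adam32, made by spermatogenic cells and chosen after their values were seen, summed to 26.0, 19.2 and 24.1 CPM in WT and to 30.9, 32.2 and 8.38 CPM in Ocln-KO. Ocln-KO replicate 3 was the lowest, but as the genes were chosen with their values known, this is not a separate observation. Their counts were 4.30%, 4.09% and 4.90% of those of the 14 sperm genes in WT and 5.25%, 5.23% and 6.04% in Ocln-KO. By contrast, in Ocln-KO replicate 3 Adam4 had 8.61 CPM, the highest of the 6 libraries. Adam18 had 1.48 CPM there and Adam1a 3.67 CPM, neither below the WT range, but both were lower than in the other Ocln-KO libraries, with 2.34 and 2.10 CPM for Adam18 and 4.43 and 5.02 CPM for Adam1a.

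**Figure D4:**
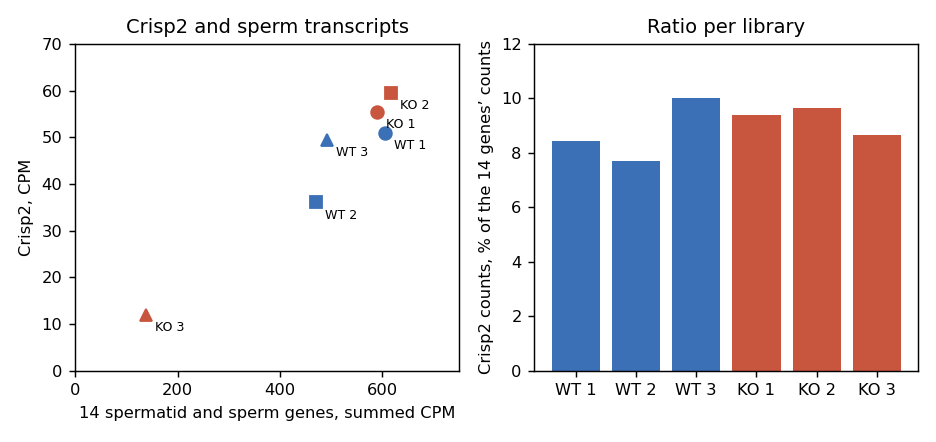
Left, CPM of Crisp2 against the summed CPM of 14 spermatid and sperm genes in each library; right, Crisp2 counts as a percentage of the counts of those genes (blue WT, red Ocln-KO). Ocln-KO replicate 3 is low on both axes of the left plot, at 12.0 and 139 CPM, and its ratio of 8.65% lies within the range of the other libraries.

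Crispld1 and Crispld2 are expressed by mesenchymal cells in many tissues. Crispld1, on chromosome 1 from 17727029 to 17767235, had 31.0, 28.4 and 24.0 CPM in the WT libraries and 31.1, 38.3 and 62.4 CPM in the Ocln-KO libraries. The genotypes did not overlap, but the lowest Ocln-KO library lay only just above the highest WT library, and Ocln-KO replicate 3 was the highest. The log2 fold change was 0.66 (SE 0.24), with an unadjusted p of 0.0268 and an edgeR adjusted p of 0.122. Leaving out Ocln-KO replicate 3 brought it to 0.32, and leaving out Ocln-KO replicate 1 to 0.86 (adjusted p = 0.0490). DESeq2 gave 0.67 with an adjusted p of 0.0441, and over all alternatives the adjusted p ran from 0.0441 to 0.616. The RNA gene Gm16070, whose annotated span overlaps the start of Crispld1, had at most 14 counts in any library, and the strand setting of the counting is not given in the sources used here.

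Like Crispld1, all listed fibroblast genes but Pdgfra were highest in Ocln-KO replicate 3. Pdgfra had 246 CPM there and 256 CPM in Ocln-KO replicate 2. The 8 fibroblast genes summed to 2555, 2627 and 2804 CPM in WT and to 2028, 2784 and 5547 CPM in Ocln-KO. The collagen genes Col1a1, Col1a2 and Col3a1 made up most of the sum in Ocln-KO replicate 3, at 1490, 1416 and 1705 CPM. All 8 were tested, all 8 had a positive log2 fold change (7 with limma-voom), and 0 were called by edgeR, DESeq2 or limma-voom, with a median of 0.34. At an unadjusted p under 0.05, 3 were higher and 0 lower, where 13.9% and 15.2% of all tested genes were. Without Ocln-KO replicate 3 only 5 of the 8 were positive. Without Ocln-KO replicate 1 edgeR called 1 higher, where 782 of all 20352 tested genes were. With Ocln-KO replicate 1 as the only Ocln-KO library 5 were positive and 1 was called lower. Col1a1, a collagen chain and the most abundant by the mean of both genotypes, had 735, 774 and 905 CPM in the WT libraries and 423, 708 and 1490 CPM in the Ocln-KO libraries. The genes most like Crispld1 were Vim, Col16a1 and Lsp1, with differences of 0.061, 0.062 and 0.063. The part of stromal cells in the level of Crispld1 was not tested.

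Crispld2, on chromosome 8 from 119992438 to 120052794, had the smallest SE of the 7 tested genes. It had 113, 111 and 116 CPM in the WT libraries and 106, 112 and 124 CPM in the Ocln-KO libraries. The WT libraries lay inside the range of the Ocln-KO libraries. Its log2 fold change was 0.0072 (SE 0.087, edgeR adjusted p = 0.967), and it ran from -0.055 to 0.061 over the fits that left out a library. The genes most like it were Mbtps1, Fto and Ttc23, with differences of 0.020, 0.024 and 0.025.

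The relatives of the 8 genes were read from the same fit. Of 9 other CAP superfamily genes 6 were tested, 0 were called higher and 1 lower, and the median log2 fold change was 0.20. Over all tested genes 3.91% were called higher and 5.04% lower. At an unadjusted p under 0.05, 2 of the list were higher, Glipr1 and Pi16, and 1 was lower (13.9% and 15.2% of all tested genes). The gene called lower was Glipr2, a CAP protein of the Golgi membrane, at 12.2, 9.70 and 11.3 CPM in the WT libraries and 5.77, 6.84 and 7.01 CPM in the Ocln-KO libraries. Its libraries did not overlap, and its log2 fold change was -0.76 (SE 0.17, edgeR adjusted p = 0.0354). The call was lost when any library but Ocln-KO replicate 3 was left out, with an adjusted p between 0.0639 and 0.135. It was also lost when libraries of the same replicate number were treated as pairs (edgeR adjusted p = 0.108). Without Ocln-KO replicate 1 edgeR called 1 gene of the list higher, where 782 of all 20352 tested genes were. Pi15, the most abundant by CPM and the neighbour of Crispld1 on chromosome 1, had 44.0, 43.8 and 31.2 CPM in the WT libraries and 31.1, 36.1 and 64.9 CPM in the Ocln-KO libraries. Like Crispld1 it was highest in Ocln-KO replicate 3, but the genotypes overlapped and its log2 fold change was 0.15 (SE 0.27, edgeR adjusted p = 0.758).

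Of 32 other ADAM genes 23 were tested, 1 was called higher, Adamdec1, and 0 lower, against 3.91% and 5.04% of all tested genes. Of the 23, 16 had a positive log2 fold change, where 10018 of all 19691 tested genes did, and the median was 0.19. At an unadjusted p under 0.05, 4 were higher and 0 lower, against 13.9% and 15.2% of all tested genes. DESeq2 called 3 higher, against 8.15% of all genes, and limma-voom 1, against 3.7%. Adam10, the shedding protease of many cell surface proteins and the most abundant of them by CPM, had 223, 210 and 201 CPM in the WT libraries and 200, 241 and 281 CPM in the Ocln-KO libraries. The genotypes overlapped and the log2 fold change was 0.19 (SE 0.13, edgeR adjusted p = 0.372).

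**Figure D5:**
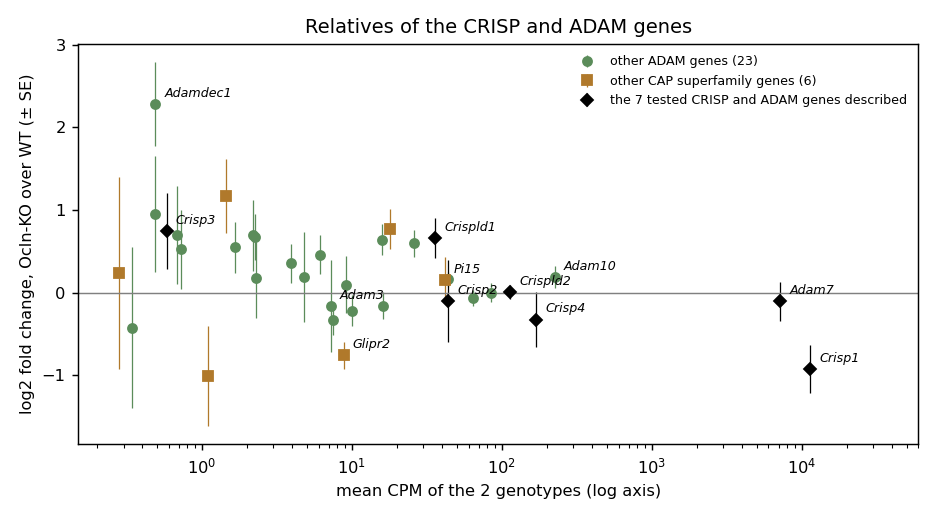
Log2 fold change, Ocln-KO over WT, against the mean CPM of both genotypes on a log axis for the 7 tested CRISP and ADAM genes (black), 6 other CAP superfamily genes (brown) and 23 other ADAM genes (green), with standard errors as bars. Among the relatives Adamdec1, at 2.28, and Glipr2, at -0.76, passed the test.

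The remaining lists describe what else the libraries held. For comparison, edgeR called 3.91% of all tested genes higher and 5.04% lower. Of the 10 genes of the initial segment and caput 6 were tested, and 2 were called higher, Gpx5 and Spag11b, and 0 lower. Their log2 fold changes were 6.12 and 8.56, and 1.61 and 1.77 with Ocln-KO replicate 1 as the only Ocln-KO library. With limma-voom the call of Spag11b was lost, at 6.84 (adjusted p = 0.566), and 1 gene of the list was called. Of the 9 general epithelial genes 9 were tested, 1 was called higher and 0 lower, with a median of -0.20. The gene called was Krt19, at 68.5 ± 6.69 CPM in WT against 118 ± 26.6 CPM in Ocln-KO, and the most abundant by the mean of both genotypes, Krt18, had 453 ± 49.6 and 453 ± 60.4 CPM (SD, n = 3). Of the 7 smooth muscle genes 7 were tested, all with a positive log2 fold change and a median of 0.52, and 2 were called higher, Myh11 and Actg2. Myh11, the most abundant by the mean of both genotypes, had 494 ± 82.1 CPM in WT against 840 ± 121 CPM in Ocln-KO, and Actg2 had 34.4 ± 7.05 and 73.0 ± 28.9 CPM (SD, n = 3). Of these 7 genes 6 were higher and 0 lower at an unadjusted p under 0.05 (13.9% and 15.2% of all tested genes). DESeq2 called 4 higher (8.15% of all) and limma-voom 1 (3.7% of all), and with limma-voom Actg2 had an adjusted p of 0.0570. Without Ocln-KO replicate 1, 5 were called higher by edgeR, where 782 of all 20352 tested genes were. Without Ocln-KO replicate 2, 0 were called, where 220 of all 20362 were called higher. Of the 7 neutrophil genes only Ltf was abundant enough to be tested, and it was called lower, at 117, 136 and 260 CPM in the WT libraries and 70.8, 76.0 and 66.4 CPM in the Ocln-KO libraries. Ltf is also an epithelial secretory gene. Of the other neutrophil genes Elane had no count in any library. Ngp, S100a9 and Camp had 12, 6 and 3 counts in WT replicate 3, where Ltf was highest, and 0 in the other libraries. S100a8 had 1 count in WT replicate 3 and 1 in Ocln-KO replicate 3, and Ly6g had 1 in Ocln-KO replicate 3. The part of neutrophils in the level of Ltf was not tested. Without WT replicate 1 the calls of Gpx5, Spag11b, Akr1b7, Krt19, Myh11, Actg2 and Ltf were all lost, with adjusted p between 0.0796 and 0.165, and they were all lost without WT replicate 2 as well (0.0504 to 0.0920). Without WT replicate 3 all but Akr1b7 were lost (0.0549 to 0.171). Without Ocln-KO replicate 1 Krt19 (0.0525) and Ltf (0.0616) were lost, and without Ocln-KO replicate 2 Gpx5 (0.0762), Spag11b (0.0653), Myh11 (0.0703), Actg2 (0.0893) and Ltf (0.0821).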

How the data were processed

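After removal of rRNA, directional libraries of whole-epididymis RNA were sequenced as paired ends. The authors aligned reads to GRCm38 (HISAT2 2.0.4 in the submitters' processing notes) and deposited the HTSeq count of each gene, without normalization. Counting mode, strand setting and the treatment of reads with several alignments are not given in the sources used here. Columns were matched to samples by name, with 0 columns unmatched.

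The analysis used R 4.3.3 and edgeR 4.0.16 (filterByExpr, TMM factors, glmQLFit, glmQLFTest, Benjamini-Hochberg over 19691 genes), with limma 3.58.1 and DESeq2 1.42.0 as alternatives. The standard error was taken as the size of the log2 fold change over the root of F. Library sizes were recomputed over the genes that passed the filter. The data were first analysed with full library sizes. This was changed after those results were seen, and the change altered the call of 0 of the 7 tested genes. With 3 libraries against 3, an exact two-sided permutation test cannot give a p under 0.1, so none was run. Limits of 3 counts cover counting error only. Likeness is the root mean square difference of centred log2(CPM + 0.5). Lengths come from GENCODE M21, and positions and promoters from RefSeq GRCm38.p6, the build of the alignment.

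Named genes are the 8 genes, Ocln, listed genes with an FDR under 0.05, the most abundant gene of each marker list by the mean of both genotypes, the genes of the initial segment and caput list, the 3 genes most like each tested gene (not Crisp3, whose level is near the 0.5 CPM added before the log), and neighbours within 250 kb, given in part. Lcn5, Wfdc8, Spink8, Clu, Adam1a, Adam2, Adam3, Adam4, Adam5, Adam18 and Adam32, and the genes named for a low count, were chosen after their values were seen. The members and lists were chosen with earlier results of these data known. The fits were tested on simulated data. Results were recomputed with DESeq2, with limma-voom, with other scaling (RLE, total counts, or without the 20 most abundant genes), with no filter or a minimum of 10 counts in each library, with a replicate block, with a fold threshold of 2, and leaving out each library. Fits without Ocln-KO replicates 2 and 3 together, and with full library sizes, were added after seeing the data.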

Additional observations from a re-analysis of the deposited data

How the results depend on the processing

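RLE factors, factors without the 20 most abundant genes, limma-voom and full library sizes changed none of the counts of called genes among the 7 tested CRISP and ADAM genes and their CAP and ADAM relatives. Over all genes the calls, 992 lower and 770 higher, were 943 and 800 with RLE factors, 1050 and 729 with limma-voom, and 674 and 1175 with total counts only, where more genes were higher than lower. With limma-voom the calls of Spag11b (adjusted p = 0.566), Actg2 (0.0570) and Gm17837 (0.172) were lost; the cause was not tested. Of the 7 tested CRISP and ADAM genes, where 0 were called lower and 0 higher, 1 was lower with DESeq2 and with no count filter, Crisp1 in both (adjusted p = 0.00494 and 0.0340). Without Ocln-KO replicates 2 and 3 together 1 was lower, there Crisp4 (0.00423), while Crisp1 had 0.0824. With DESeq2 1 was higher, Crispld1. With each library left out in turn both counts lay between 0 and 1. Calls among CAP relatives, 1 in the analysis above, numbered 2 with DESeq2 and 2 with no count filter, 0 with the fold change threshold, 0 without Ocln-KO replicates 2 and 3 together, and 0 to 1 with a library left out. Calls among ADAM relatives, also 1, numbered 3 with DESeq2, 3 with total counts only and 3 with no count filter, 0 with at least 10 counts in every library, 0 without Ocln-KO replicates 2 and 3 together, and 0 to 1 with a library left out. The filter of 10 counts removes Adamdec1; the cause was not tested for the others.

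The study's methods mention pairs of mice, which may mean a WT and an Ocln-KO mouse together, and do not say whether libraries of the same number form a pair. The deviations of such libraries correlated at -0.060, -0.018 and -0.036, which does not settle whether they were paired. With the replicate block, the genes called over the whole table went from 992 lower and 770 higher to 31 and 10, and those called among CAP and ADAM relatives to 0 and 0. The block also removed the calls of Gpx5 (adjusted p = 0.114), Spag11b (0.0765), Krt19 (0.106), Myh11 (0.0646), Actg2 (0.0646), Ltf (0.0958) and Gm17837 (0.131), and Ocln (0.0170) and Akr1b7 (0.0299) still passed.

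Directions turned for genes that did not pass the test. With each library left out in turn, the log2 fold change of Crisp2 lay between -0.43 and 0.34, Crisp4 between -0.56 and 0.015, Crispld2 between -0.055 and 0.061, and Adam7 between -0.38 and 0.082. Without Ocln-KO replicates 2 and 3 together it was 0.29 for Crisp2 and -0.093 for Crispld2. Crisp1, Crisp3 and Crispld1 kept their direction in each fit. Total counts only moved the median of all tested genes from 0.0081 to 0.094. Leaving out WT replicate 1 cut the calls over all genes to 19 lower and 4 higher. Crisp3 had at most 29 counts in a library and Adam28 at most 5, and the cause of these low counts was not tested.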
